A study of Homo sapiens with 9 samples.

Results

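The genes described here are 34 components of fatty acid oxidation: the carnitine shuttle, the mitochondrial and peroxisomal beta-oxidation enzymes, the electron transfer flavoproteins, and the transporters and nuclear receptors linked to them. They were taken by gene symbol from a table of 26475 gene rows. All 34 were found, and all 34 were among the 14135 genes with enough reads to be tested. By known location, 19 act in mitochondria, 9 in peroxisomes and 2 (CRAT and ECI2) in both. The remaining 4 act elsewhere: SLC22A5 at the plasma membrane, ABCD4 on lysosomes, and PPARA and PPARD in the nucleus. RNA came from the cell line MDA-MB-231, derived from a human breast adenocarcinoma of the triple-negative type, in 3 groups of 3 libraries. Control cells carried the empty lentiviral vector pLKO.1, and ACSL4 knockdown cells carried pLKO.1-shACSL4, the same vector with a short hairpin against ACSL4. The third group was the control cells, empty vector included, given PRGL493, an ACSL4 inhibitor. Both cell populations were stably transduced, so all 9 libraries came from cells carrying a pLKO.1 vector. The labels name 1 hairpin construct and do not say whether the cells are a clone or a pool. They also do not say at what concentration, in what vehicle or for how long PRGL493 was given. Any part of a vehicle in the PRGL493 differences was not tested. The 3 libraries of a group were described as batches of the same cells, so p-values here reflect batch-to-batch spread within each engineered population and not variation between independent transductions.

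Beta-oxidation shortens acyl-CoA by repeated rounds of dehydrogenation, hydration, a further dehydrogenation and thiolytic cleavage. Long chains reach the mitochondrial matrix as carnitine esters, and electrons from the acyl-CoA dehydrogenases pass through the electron transfer flavoprotein to the respiratory chain. Peroxisomes take very long, branched and dicarboxylic chains through ABC transporters, start each round with an oxidase that makes hydrogen peroxide, and pass shortened chains on to mitochondria as carnitine esters. ACSL4 acts upstream of both, since it ligates arachidonate and other long polyunsaturated fatty acids to coenzyme A.

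In the ACSL4 knockdown the mitochondrial and peroxisomal members moved in both directions. Under PRGL493, 7 of the 19 mitochondrial members were lower and 1 higher at an adjusted p under 0.05. Of the 9 peroxisomal members, 4 were higher and 0 lower. Over all tested genes, 21.4% were higher and 20.4% lower under PRGL493. The largest decreases under PRGL493 were in ACADM, ACAT1, CPT1A, DECR1 and HADHB, to between 69.3% and 79.3% of control. The largest increases were in ACAA1, ACOX3 and PPARA, to between 133% and 143% of control. The largest changes in the knockdown were decreases in ACADS, ACADSB, ACADM and ACOX3, to between 73.9% and 81.6% of control, and an increase in ETFA to 124% of control. Every change among the 34 genes was smaller than 2-fold.

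ACSL4 itself checked the knockdown label. It stood at 342, 339 and 366 CPM (counts scaled to a common library size with TMM factors) in the control libraries, 29.5, 23.7 and 27.6 in the knockdown, and 333, 350 and 360 under PRGL493. The knockdown libraries held 7.72% of the control level (log2 fold change −3.69, SE 0.07, adjusted p = 6.0e-16, edgeR quasi-likelihood test), and PRGL493 left a difference of −0.01 (95% interval −0.14 to 0.13). Library totals ran from 28673938 to 43027190 counts, of which the 34 genes took 0.198% to 0.221%, and each member had between 198 and 8614 counts per library. The mesenchymal marker CD44 was between 1257 and 1562 CPM in every library, while ESR1 and PGR stayed at or below 0.15 CPM and PTPRC, CD3E, ADIPOQ, ALB and VWF at or below 0.43 CPM. Some markers moved with the groups. Under PRGL493 CD44 was higher (0.21, adjusted p = 0.0011), ERBB2 was higher (0.35, adjusted p = 0.00037) within a range of 68.0 to 104 CPM over all libraries, and CDH1 was lower (−1.57, adjusted p = 0.00013) at 2.04 CPM or less. In the knockdown EGFR was lower (−0.45, adjusted p = 0.0097), as was the endothelial marker PECAM1 (−0.58, adjusted p = 0.039) at 1.103 to 3.111 CPM. The part of these differences in the results was not tested. Knockdown replicate 2 stood apart when each gene was set against its mean log2 level over all 9 libraries. Its short transcripts (2343 bases or less) had a median difference of 0.15 and its long ones (5662 bases or more) of −0.16. In the other libraries these medians lay between −0.07 and 0.05. In that library the 34 genes lay above the same mean by a median log2 of 0.13. Results that rest on that library are given with and without it.

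The gene pair HADHA and HADHB encodes the alpha and beta subunits of the mitochondrial trifunctional protein. It has 1 of the printed sequences because both RefSeq starts lie on the same short stretch of chromosome 2. HADHA (chr2:26190635-26244726, minus strand) and HADHB (chr2:26243170-26290468, plus strand, both GENCODE 29 on GRCh38) run in opposite directions, and their annotated exons share no base. These GENCODE spans overlap, as that of HADHB begins within HADHA. The RefSeq starts (GRCh38.p14) lie 307 bases apart, and the 2 annotations place the starts of both HADHA and HADHB differently. The 250 bases upstream of the RefSeq HADHB start, chr2:26244689-26244938 on the plus strand, are shown. Capitals mark the 194 bases that also lie upstream of the RefSeq HADHA start. By the GENCODE spans, part of these capitals lies within HADHA and the whole stretch within HADHB.
HADHB upstream: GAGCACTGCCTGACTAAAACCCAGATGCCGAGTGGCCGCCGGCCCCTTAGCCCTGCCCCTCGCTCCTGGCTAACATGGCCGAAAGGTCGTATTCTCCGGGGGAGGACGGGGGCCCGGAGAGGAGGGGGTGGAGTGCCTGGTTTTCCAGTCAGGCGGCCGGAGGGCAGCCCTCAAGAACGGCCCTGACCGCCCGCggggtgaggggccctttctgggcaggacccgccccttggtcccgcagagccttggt
The RNA levels of the 2 subunit genes are compared with each other further on.

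ACOX3 encodes a peroxisomal oxidase for branched-chain acyl-CoA and was lower in the knockdown and higher under PRGL493. It is shown because it has 2 RefSeq starts, on chromosome 4, minus strand, and the 250 bases before each hold the cyclic AMP response element palindrome TGACGTCA, in capitals. The first window is chr4:8440724-8440973 and the second chr4:8428449-8428698, both 5′ to 3′ on the minus strand.
ACOX3 upstream of the first start: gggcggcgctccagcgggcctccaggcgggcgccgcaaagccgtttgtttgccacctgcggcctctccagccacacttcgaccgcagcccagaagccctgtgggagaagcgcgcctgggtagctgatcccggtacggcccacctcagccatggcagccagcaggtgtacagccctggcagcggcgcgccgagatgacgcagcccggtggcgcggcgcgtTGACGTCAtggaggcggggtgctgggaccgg
ACOX3 upstream of the second start: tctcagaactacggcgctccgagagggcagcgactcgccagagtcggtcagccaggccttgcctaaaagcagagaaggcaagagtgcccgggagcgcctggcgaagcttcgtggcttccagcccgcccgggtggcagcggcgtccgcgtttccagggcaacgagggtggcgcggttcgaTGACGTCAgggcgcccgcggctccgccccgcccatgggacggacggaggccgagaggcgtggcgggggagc
The palindrome begins 31 bases before the first start and 71 bases before the second. RefSeq windows from 250 bases before to 50 bases after a start were matched for 28 of the 34 genes, 36 windows in all, and searched on both strands beside all 35116 such windows. TGACGTCA was in 3 of the 36 windows (both of ACOX3 and that of ACAD9) and in 1.85% of all windows. The NRF1 palindrome, GCGCA followed directly by its reverse complement, was in 1 of the 36, that of PPARA, and in 1.24% of all windows. The PPAR direct repeat AGGTCANAGGTCA and the extended ERR half-site TCAAGGTCA were in none of the 36, and in 0.0228% and 0.353% of all windows. The 4 motifs share no full match, although the ERR half-site holds the letters AGGTCA that the PPAR repeat uses. A match is only a description of these letters, and the windows are short.

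In control cells the members spanned a wide range of levels per kilobase of merged exon. ACADVL, the very long-chain acyl-CoA dehydrogenase, was highest at 81.2 ± 4.55 CPM per kb (SD, n = 3), followed by the short-chain hydratase ECHS1 at 73.6 ± 1.38, ECI2 at 69.0 ± 1.41 and HADHA at 52.9 ± 1.56. The first peroxisomal gene in this order was HSD17B4, the D-bifunctional protein, at 31.0 ± 0.392 CPM per kb, in eighth place and within the spread of ETFA at 31.3 ± 0.298. The 3 lowest were SLC25A20 at 3.82 ± 0.527, EHHADH at 2.82 ± 0.201 and CROT at 2.21 ± 0.139 CPM per kb. CRAT and ABCD3, at 25.7 ± 0.546 and 25.6 ± 0.294, and ACAA1 and ECI1, both at 14.2 with SDs of 0.485 and 2.10, were also neighbours that did not differ beyond their spread. The rate-controlling CPT1A stood in the lower part of the order, at 9.19 ± 0.295 CPM per kb. These per-length levels depend on which exons a gene model merges.

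**Figure D1:**
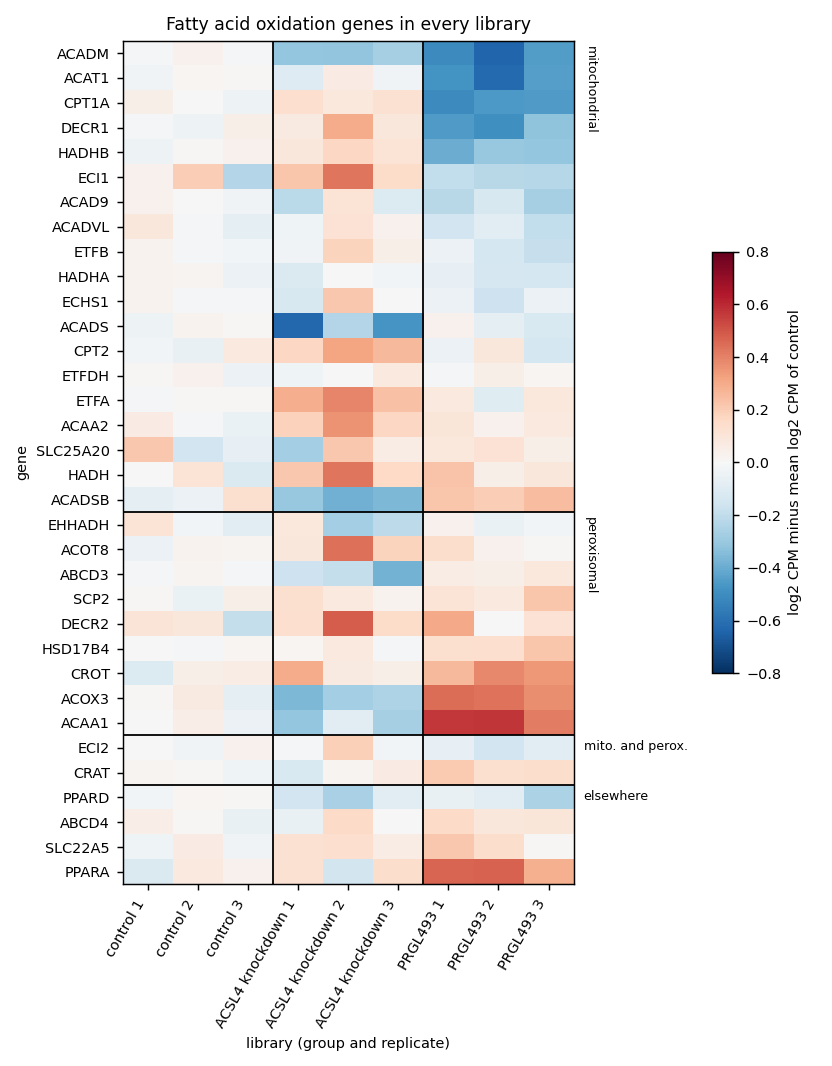
Each row is 1 of the 34 genes and each column 1 of the 9 libraries; color gives log2 CPM minus the mean log2 CPM of the 3 control libraries, from −0.8 (blue) to 0.8 (red). Under PRGL493, ACADM, ACAT1 and CPT1A are blue and ACAA1, ACOX3 and PPARA are red in all 3 libraries.

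In the knockdown against control, 12 of the 34 members were called at an adjusted p under 0.05, 6 higher and 6 lower. That is 17.6% of members in each direction, against 14.7% of all tested genes called higher and 15.3% called lower, a share near the background. The members' median log2 fold change was 0.04, beside 0.00 over all tested genes. Those called higher were CPT2, HADH, ACAA2, ECI1, ETFA and ACOT8, and those called lower ACADM, ACADS, ACADSB, ACOX3, ACAA1 and ABCD3. Of the 19 mitochondrial members 5 were higher and 3 lower, with a median of 0.04, and of the 9 peroxisomal members 1 was higher and 3 lower, with a median of 0.03. The calls of ABCD3, ACADM, ACADS, ACADSB, ACOX3 and ETFA were kept in all 17 alternative settings. Without control replicate 3 the count was 7, with 2 higher and 5 lower, and without knockdown replicate 2 it was 11, with 4 higher and 7 lower. Without that knockdown library the median was 0.0004 over all members, 0.01 over the mitochondrial and −0.0009 over the peroxisomal ones. The peroxisomal count was 2, both lower, without any 1 control library or without knockdown replicate 3. With library totals alone as the scaling, 9 members were higher and 5 lower.

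Under PRGL493, 14 members were called against control, 7 higher and 7 lower, or 20.6% in each direction. Over all tested genes, 21.4% were called higher and 20.4% lower, so the total was also near the background. The median was 0.02, beside 0.01 over all genes. What differed was the split by compartment. Of the 19 mitochondrial members, 7 were lower (CPT1A, ACADVL, ACADM, ACAD9, HADHB, ACAT1 and DECR1) and 1 higher (ACADSB), with a median log2 fold change of −0.11 and 13 of 19 below 0. Of the 9 peroxisomal members, 4 were higher (CROT, ACOX3, HSD17B4 and ACAA1) and 0 lower, with a median of 0.15 and 8 of 9 above 0. Without control replicate 1, control replicate 2 or PRGL493 replicate 3, 9 members had an adjusted p under 0.05 each time, 4 higher and 5 lower. In those settings the mitochondrial count was 5, all lower, and the peroxisomal count was 3, all higher. Without PRGL493 replicate 1 the mitochondrial count was also 5. Of the peroxisomal calls, those of ACAA1 and ACOX3 were kept in all 17 alternative settings.

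Both treatments were set against the same control libraries, so their values are given side by side and the knockdown was also compared with PRGL493 directly. In that comparison 20 members were called, 12 higher in the knockdown and 8 lower, against 24.4% of all tested genes called higher and 26.0% lower. Expressed as shares, 35.3% of members were higher and 23.5% lower. Among the mitochondrial members 11 were higher and 2 lower, with a median of 0.19, and among the peroxisomal members 0 were higher and 4 lower, with a median of −0.13. Of those 4, ACOX3, ACAA1 and ABCD3 kept their call in all 17 alternative settings, and HSD17B4 in 6. The median over all 34 members was 0.09, beside −0.01 over all tested genes. Without knockdown replicate 2 the split was 9 higher and 9 lower, with a member median of 0.02, and with the length trend also removed it was 8 higher and 9 lower. With upper-quartile factors 15 members were higher and 6 lower, and of these 1 higher and 3 lower were peroxisomal. Without knockdown replicate 2, ACAA2, ETFB and ECI2 lost their calls, at 0.11, 0.13 and 0.09 (adjusted p = 0.14, 0.068 and 0.15). These genes kept their calls in 10, 14 and 10 of the 17 alternative settings. The knockdown and PRGL493 libraries differ in the vector insert as well as in the compound.

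**Figure D2:**
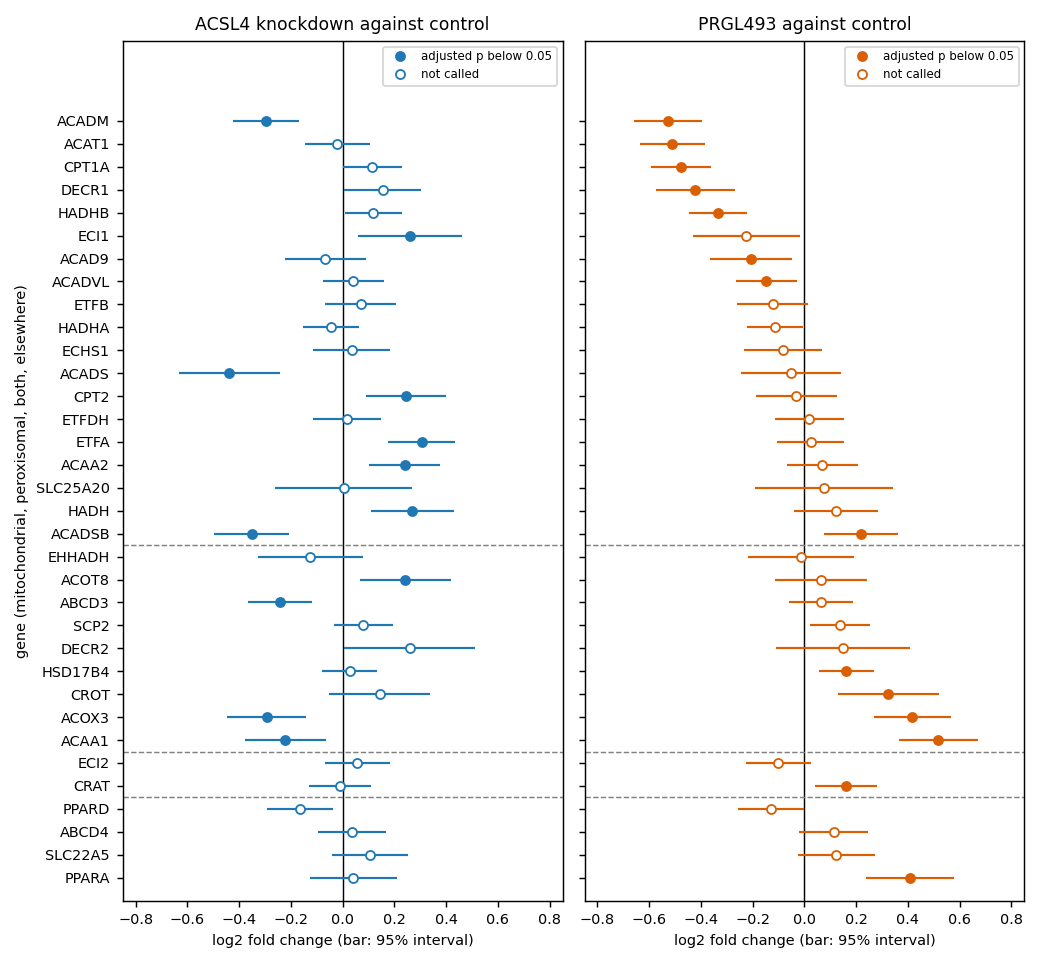
Each row is 1 of the 34 genes, ordered by compartment; points are log2 fold changes and bars 95% intervals, with filled points for an adjusted p under 0.05, in one panel per treatment against control. Under PRGL493 most filled mitochondrial points lie left of 0 and all 4 filled peroxisomal points lie right of it.

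The summed levels gave the same contrast per library. The 19 mitochondrial members summed to 1213, 1203 and 1173 CPM in control, 1182, 1319 and 1223 in the knockdown and 1081, 1050 and 1066 under PRGL493. All 3 PRGL493 sums lay below all 3 control sums, at 89.1% of the control mean, while the knockdown sums overlapped control at 104%. That 104% includes knockdown replicate 2, the highest at 1319 CPM. Knockdown replicates 1 and 3 stood at 1182 and 1223 CPM, beside 1173 to 1213 in control. The 9 peroxisomal members summed to 425, 423 and 427 CPM in control, 423, 431 and 399 in the knockdown and 474, 468 and 486 under PRGL493. Here the PRGL493 sums all lay above control, at 112%, and the knockdown again overlapped it at 98.2%. The mitochondrial to peroxisomal ratio was 2.81 ± 0.0569 in control, 2.97 ± 0.154 in the knockdown and 2.24 ± 0.0436 under PRGL493 (SD, n = 3 each). On the log2 scale the ratio differed from control by 0.08 in the knockdown and by −0.33 under PRGL493, given without a test because the members were chosen with results known. A few abundant genes weigh most in such sums.

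**Figure D3:**
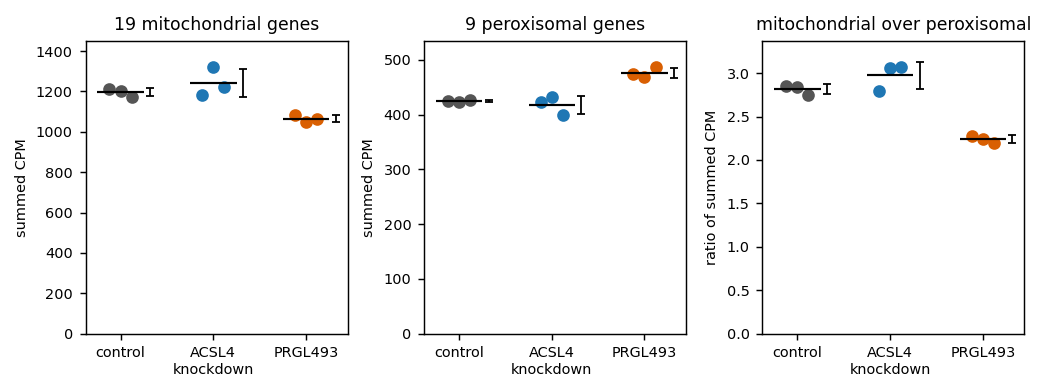
Summed CPM of the 19 mitochondrial genes, of the 9 peroxisomal genes, and the ratio of these sums, with 1 point per library and the group mean and SD. The PRGL493 libraries lie below control in the first panel (1050 to 1081 CPM), above it in the second (468 to 486 CPM) and below it in the ratio (2.19 to 2.28).

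In the carnitine shuttle, CPT1A fell and CROT and CRAT rose under PRGL493, and CPT2 rose in the knockdown. CPT1A (chr11:68754620-68844410, minus strand), which makes acylcarnitines on the outer mitochondrial membrane and is the main control point of entry, stood at 55.0, 52.9 and 51.6 CPM in control, 58.4, 56.5 and 57.8 in the knockdown and 37.3, 38.6 and 38.9 under PRGL493. The PRGL493 libraries were all below control, and the level fell to 71.9% of it (log2 fold change −0.48, SE 0.06, adjusted p = 3.7e-06). In the knockdown all 3 libraries were above control by a small margin that did not pass the test (0.11, SE 0.05, adjusted p = 0.12). That difference was called in 2 of the 17 alternative settings, library totals alone and upper-quartile factors (adjusted p = 0.045 and 0.048). It was also called with the length trend removed (0.19, adjusted p = 0.0078). The direct comparison of the treatments gave 0.59 (SE 0.05, adjusted p = 2.1e-07). In these bulk libraries, a lower level of an RNA per cell and fewer cells that hold it cannot be told apart.

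CPT2, the inner-membrane enzyme that returns acyl groups to coenzyme A, rose in the knockdown. It stood at 24.5, 23.8 and 26.2 CPM in control, 27.9, 30.8 and 29.7 in the knockdown and 24.0, 26.5 and 22.5 under PRGL493. The knockdown libraries lay above all others (0.25, SE 0.07, adjusted p = 0.017 against control), and the PRGL493 libraries overlapped control (−0.03, 95% interval −0.19 to 0.12). The knockdown call was lost without control replicate 1, control replicate 2 or knockdown replicate 3, with adjusted p of 0.063, 0.083 and 0.053. CROT, the peroxisomal carnitine octanoyltransferase that prepares shortened chains for export, stood at 8.64, 9.63 and 9.69 CPM in control and 11.1, 12.1 and 11.8 under PRGL493 (0.32, SE 0.09, adjusted p = 0.010). Without control replicate 1 that adjusted p was 0.052. Its knockdown values of 11.4, 9.77 and 9.62 overlapped control, and the direct difference between the treatments was not called (−0.18, adjusted p = 0.10). CRAT, the short-chain carnitine acetyltransferase of mitochondria and peroxisomes, rose to 112% of control under PRGL493 (0.16, SE 0.06, adjusted p = 0.033), a call lost in 9 of the 17 alternative settings. The carnitine importer SLC22A5 and the carnitine-acylcarnitine exchanger SLC25A20 were called in neither treatment, and the widest interval belonged to SLC25A20, −0.26 to 0.27 in the knockdown.

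The acyl-CoA dehydrogenases, which start each mitochondrial round and differ in the chain length they accept, held the largest knockdown decreases. ACADM (chr1:75724347-75787575, plus strand), the medium-chain enzyme, stood at 43.6, 45.2 and 43.7 CPM in control, 35.7, 35.5 and 36.7 in the knockdown and 31.0, 28.5 and 32.4 under PRGL493. No library of either treatment reached the lowest control library. The level was 81.4% of control in the knockdown (−0.30, SE 0.06, adjusted p = 0.0015) and 69.3% under PRGL493 (−0.53, SE 0.06, adjusted p = 4.1e-06). The difference between the treatments was itself called (0.23, SE 0.06, adjusted p = 0.0051).

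ACADS, the short-chain enzyme, fell only in the knockdown comparison: 16.3, 17.1 and 16.9 CPM in control, 10.9, 14.3 and 12.1 in the knockdown, and 17.2, 15.9 and 15.4 under PRGL493. The knockdown log2 fold change was −0.44 (SE 0.09, adjusted p = 0.0019), that under PRGL493 −0.05 (95% interval −0.24 to 0.14), and the knockdown differed from PRGL493 by −0.39 (adjusted p = 0.0021). ACADSB (chr10:123008979-123058311, plus strand), which acts on short branched chains from isoleucine, had opposite signs. Its levels were 24.7, 25.2 and 28.4 CPM in control, 21.1, 20.0 and 20.3 in the knockdown and 30.3, 29.8 and 30.9 under PRGL493. The 3 groups did not overlap: the knockdown was lower (−0.35, SE 0.07, adjusted p = 0.0011), and PRGL493 was higher (0.22, SE 0.07, adjusted p = 0.016). The PRGL493 call was lost in 4 settings that left out a control or PRGL493 library, at adjusted p of 0.056 to 0.082. ACADVL and ACAD9, the very long-chain enzyme and a relative that also serves complex I assembly, were called lower under PRGL493 at −0.15 and −0.21 (adjusted p = 0.043 and 0.037). Each of those 2 calls was lost in most settings that left out a control or PRGL493 library, and in the knockdown neither gene was called with all 9 libraries (0.04 and −0.07).

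HADHA and HADHB, whose RefSeq starts share the upstream stretch printed above, changed unequally. HADHB stood at 77.5, 80.4 and 81.6 CPM in control, 84.8, 89.4 and 86.0 in the knockdown and 60.7, 64.8 and 64.5 under PRGL493. Its PRGL493 libraries were all below control (−0.34, SE 0.05, adjusted p = 0.00010) and its knockdown libraries all above it without passing the test (0.12, SE 0.05, adjusted p = 0.10). HADHA stood at 169, 168 and 160.5 CPM in control, 153, 166 and 164 in the knockdown and 159, 151 and 150.5 under PRGL493, with log2 fold changes of −0.04 (95% interval −0.15 to 0.06) and −0.11 (−0.22 to −0.01, adjusted p = 0.081). The HADHB to HADHA ratio of CPM was 0.481 ± 0.0256 in control, 0.539 ± 0.0140 in the knockdown and 0.413 ± 0.0267 under PRGL493 (SD, n = 3 each), and the 3 groups did not overlap. Whether the counting used strand is not given in the sources used here, so reads from the start region of either gene may have been assigned to its partner.

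Among the matrix thiolases and hydroxyacyl-CoA dehydrogenases, ACAT1 fell under PRGL493, and ACAA2 and HADH rose in the knockdown. ACAT1, the acetoacetyl-CoA thiolase of ketone body and isoleucine breakdown, stood at 117, 121 and 121 CPM in control, 111, 125 and 117 in the knockdown and 85.9, 77.8 and 88.0 under PRGL493. It fell to 70.1% of control under PRGL493 (−0.51, SE 0.06, adjusted p = 4.0e-06), while the knockdown overlapped control (−0.02, 95% interval −0.14 to 0.10). ACAA2, the thiolase of medium and long chains, rose in the knockdown (0.24, SE 0.06, adjusted p = 0.010), as did HADH, which oxidizes medium and short hydroxyacyl-CoA (0.27, SE 0.08, adjusted p = 0.014). ACAA2 stood at 39.8, 37.6 and 36.6 CPM in control and 43.2, 48.8 and 42.6 in the knockdown, and HADH at 54.5, 58.6 and 50.3 against 63.3, 73.1 and 60.7. Under PRGL493 ACAA2 stood at 40.6, 38.9 and 40.0 CPM (0.07, 95% interval −0.07 to 0.21) and HADH at 63.7, 56.1 and 57.9 (0.12, −0.04 to 0.29). The direct difference between the treatments was called for ACAA2 (0.17, adjusted p = 0.035) and not for HADH (0.15, adjusted p = 0.12). The ACAA2 call was kept in 10 of the 17 alternative settings. It was lost without knockdown replicate 2, and also without any 1 PRGL493 library. Both were highest in knockdown replicate 2, and both kept their call against control without it. Without control replicate 3 their adjusted p was 0.055 and 0.084. ECHS1, the hydratase, was not called (0.03 in the knockdown and −0.08 under PRGL493).

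Among the auxiliary enzymes that handle double bonds, DECR1, the mitochondrial 2,4-dienoyl-CoA reductase needed for polyunsaturated chains, stood at 36.4, 35.6 and 37.7 CPM in control, 38.4, 44.8 and 38.9 in the knockdown and 26.7, 26.0 and 29.2 under PRGL493. It fell to 74.7% of control under PRGL493 (−0.42, SE 0.07, adjusted p = 0.00020) and was not called in the knockdown (0.16, adjusted p = 0.11). DECR2, its peroxisomal counterpart, was called in neither treatment, at 0.26 (95% interval 0.01 to 0.51) and 0.15 (−0.11 to 0.41). ECI1, a mitochondrial enoyl-CoA isomerase, was called higher in the knockdown with overlapping groups: 31.0, 34.8 and 25.8 CPM in control against 35.3, 40.7 and 33.6 (0.26, SE 0.09, adjusted p = 0.049). Without knockdown replicate 2 its fold change was 0.18 (adjusted p = 0.13) and without control replicate 3 it was 0.15 (adjusted p = 0.24), and it was lost in 9 of the 17 alternative settings. Its isomerase relative ECI2, found in both organelles, was not called against control (0.06 and −0.10).

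The electron transfer flavoprotein is a dimer of ETFA and ETFB, and ETFDH passes its electrons to ubiquinone. ETFA stood at 70.9, 72.1 and 72.0 CPM in control, 87.5, 94.0 and 84.2 in the knockdown and 75.7, 67.0 and 75.9 under PRGL493. All 3 knockdown libraries were above every other library, and the level rose to 124% of control (0.30, SE 0.06, adjusted p = 0.0013). ETFB was at 0.07 in the knockdown (95% interval −0.07 to 0.21) and −0.12 under PRGL493 (−0.26 to 0.02), and ETFDH at 0.02 in both (−0.12 to 0.15). The exons of ETFDH share 490 bases with PPID on the opposite strand. PPID had means of 34.4 CPM in control, 39.7 in the knockdown and 35.7 under PRGL493. The ratio of ETFA to ETFB was 1.76 ± 0.0497 in control, 2.08 ± 0.0999 in the knockdown and 1.96 ± 0.154 under PRGL493 (SD, n = 3 each), all on the CPM scale without length.

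**Figure D4:**
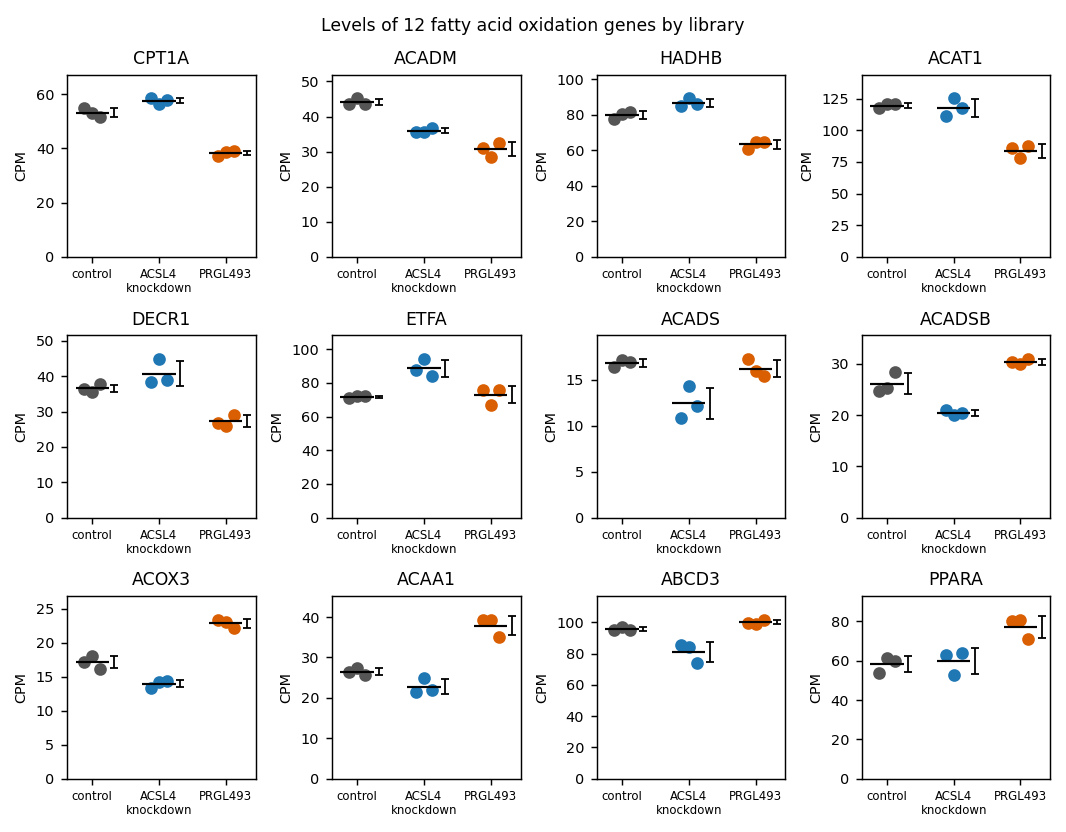
CPM of 12 of the genes in each of the 9 libraries, with 1 point per library, the group mean and its SD, and axes that start at 0. CPT1A, ACAT1 and DECR1 show PRGL493 libraries below control, ACADS shows knockdown libraries below control, and ACOX3, ACAA1 and ACADSB show 3 groups that do not overlap.

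Among the peroxisomal enzymes, the oxidase ACOX3 and the thiolase ACAA1 were lower in the knockdown and higher under PRGL493. ACOX3 (chr4:8366282-8440723, minus strand), whose 2 upstream windows are printed above, stood at 17.2, 18.0 and 16.2 CPM in control, 13.4, 14.2 and 14.4 in the knockdown and 23.3, 23.1 and 22.1 under PRGL493. The 3 groups did not overlap: the knockdown was at 81.6% of control (−0.29, SE 0.07, adjusted p = 0.0057) and PRGL493 at 133% (0.42, SE 0.07, adjusted p = 0.00018). The direct difference between the treatments was −0.71 (SE 0.07, adjusted p = 4.8e-07). ACAD9, the other gene with TGACGTCA in its window, was on the opposite side of control under PRGL493: 42.5, 41.4 and 40.8 CPM in control, 35.8, 44.8 and 38.5 in the knockdown and 35.5, 38.0 and 34.6 under PRGL493. In the knockdown it was at −0.07 without a call, and at −0.16 (adjusted p = 0.046) without knockdown replicate 2.

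ACAA1 (chr3:38103129-38137242, minus strand), the peroxisomal thiolase that closes each round, stood at 26.4, 27.4 and 25.6 CPM in control, 21.3, 24.8 and 21.9 in the knockdown and 39.2, 39.2 and 35.1 under PRGL493. It rose to 143% of control under PRGL493 (0.52, SE 0.07, adjusted p = 2.9e-05), the largest increase among the 34 members. The knockdown was lower (−0.22, SE 0.07, adjusted p = 0.032), a call lost in 7 of the 17 alternative settings, among them those without any 1 control library or without knockdown replicate 1 or 3, where the adjusted p reached 0.12. Its exons share 413 bases with DLEC1 on the opposite strand, and the mean of DLEC1 was 0.0969 CPM in control, 0.0959 in the knockdown and 0.153 under PRGL493. The ratio of ACAA1 to its mitochondrial counterpart ACAA2 was 0.697 ± 0.0324 in control, 0.506 ± 0.0112 in the knockdown and 0.950 ± 0.0679 under PRGL493 (SD, n = 3 each), again without overlap.

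HSD17B4, which hydrates and dehydrogenates straight, branched and bile-acid chains, stood at 119.8, 118 and 121 CPM in control, 121, 127 and 118 in the knockdown and 131, 131 and 139.5 under PRGL493. It rose under PRGL493 only by a small amount (0.16, SE 0.05, adjusted p = 0.016), a call lost without control replicate 2 or PRGL493 replicate 3, at adjusted p of 0.065 and 0.086. EHHADH, the L-bifunctional enzyme, was called in neither treatment (−0.12 and −0.01). SCP2, which combines a thiolase for branched chains with a sterol carrier domain, had all PRGL493 libraries above control without passing the test (0.14, SE 0.05, adjusted p = 0.053). ACOT8, a peroxisomal acyl-CoA thioesterase, was called higher in the knockdown at 23.4, 29.8 and 24.9 CPM against 21.3, 22.4 and 22.3 (0.24, SE 0.08, adjusted p = 0.036). Without knockdown replicate 2 it was 0.13 (adjusted p = 0.15), and the call was also lost without knockdown replicate 3 or any 1 control library (adjusted p = 0.051 to 0.12). ACOT8 has the shortest merged exons of the 34 genes, 1168 bases.

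Of the ABC transporters, ABCD3, which imports branched-chain and dicarboxylic acyl-CoA into peroxisomes, stood at 95.2, 97.1 and 95.2 CPM in control, 85.3, 84.0 and 73.7 in the knockdown and 99.8, 99.2 and 102 under PRGL493. Its knockdown libraries were the 3 lowest (−0.24, SE 0.06, adjusted p = 0.0048), and the PRGL493 difference was not called (0.06, 95% interval −0.06 to 0.19). Its family relative ABCD4, which serves cobalamin export from lysosomes and not fatty acid transport, was not called in either treatment (0.04 and 0.11). PPARA (chr22:46150521-46243756, plus strand), the nuclear receptor that activates oxidation genes when fatty acids bind it, stood at 53.7, 61.5 and 59.6 CPM in control, 63.2, 52.5 and 64.1 in the knockdown and 80.3, 80.7 and 70.8 under PRGL493. It rose to 133% of control under PRGL493 (0.41, SE 0.08, adjusted p = 0.00068), and the knockdown overlapped control (0.04, 95% interval −0.13 to 0.21). PPARD, the broadly expressed relative, had both treatments' libraries below all control libraries but no call (−0.16, adjusted p = 0.051 and −0.13, adjusted p = 0.096). It was called lower in 6 of the 17 alternative settings in the knockdown and in 2 of the 17 under PRGL493.

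The wider pathway was read from lists of genes outside the 34, with up to 3 called genes per list and treatment taken by smallest adjusted p. Over all tested genes, 30.1% were called in the knockdown and 41.8% under PRGL493. Of 9 tested regulators of oxidation genes, 0 rose and 1 fell in the knockdown, and 3 rose and 4 fell under PRGL493 (11.1% and 77.8% called). ESRRA, the estrogen-related receptor that drives mitochondrial genes, stood at 79.0, 78.6 and 73.3 CPM in control, 71.1, 84.6 and 73.4 in the knockdown and 57.9, 59.7 and 57.2 under PRGL493 (−0.40, SE 0.07, adjusted p = 0.00012). Its coactivator PPARGC1B fell by 0.81 on the log2 scale (SE 0.13, adjusted p = 0.00015). RXRA, the obligate partner of the PPARs, rose (0.37, SE 0.06, adjusted p = 5.9e-05), and the corepressor NRIP1 fell in the knockdown (−0.48, adjusted p = 0.0011), with 0.31 under PRGL493 (adjusted p = 0.011, or 0.051 without PRGL493 replicate 3). PPARGC1A, chosen after its values were seen, fell by 0.64 under PRGL493 (adjusted p = 0.00081).

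Malonyl-CoA blocks CPT1, and AMPK limits its synthesis. Of 9 tested genes of this control, 0 rose and 3 fell in the knockdown, and 4 rose and 2 fell under PRGL493 (33.3% and 66.7% called, the former near the share of all genes). ACACA, which makes malonyl-CoA, fell in the knockdown (−0.31, adjusted p = 0.0050) and rose under PRGL493 (0.57, adjusted p = 1.9e-05). MLYCD, which breaks malonyl-CoA down, rose under PRGL493 (0.65, adjusted p = 0.0010). The AMPK subunit genes PRKAG2 and PRKAB2 fell by 0.24 and 0.43 under PRGL493 (adjusted p = 0.0050 and 0.00033), and PRKAG2 also in the knockdown (−0.47, adjusted p = 2.8e-05). Those 2 were the only genes of this list called lower under PRGL493, and the 4 called higher included an AMPK subunit gene. The AMPK subunit genes therefore moved in both directions.

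Of 16 tested peroxisomal lipid enzymes and carriers outside the 34, 2 rose and 2 fell in the knockdown, and 5 rose and 3 fell under PRGL493. At 25% and 50% called these counts were near the shares of all genes, and the medians were 0.01 and 0.14. CAT, which removes the hydrogen peroxide of the oxidases, rose under PRGL493 (0.45, SE 0.07, adjusted p = 5.8e-05), as did the racemase AMACR (0.51, SE 0.08, adjusted p = 0.00013) and the membrane acyl-CoA binding protein ACBD5 (0.35, SE 0.05, adjusted p = 7.7e-05). The 3 that fell under PRGL493 were ACOX2 (−0.67), HACL1 (−0.31) and AGPS (−0.24), of which ACOX2 and HACL1 were chosen after their values were seen. SLC27A2, a very long-chain acyl-CoA synthetase, rose in the knockdown from 2.82, 3.37 and 3.30 to 5.997, 6.53 and 6.31 CPM (0.99, SE 0.12, adjusted p = 1.3e-05). Of 16 peroxins, which build the organelle, 3 rose and 2 fell in the knockdown and 5 rose and 3 fell under PRGL493, again near the shares of all genes. PEX16, which acts in peroxisomal membrane assembly, was lower in the knockdown (−0.35, adjusted p = 0.014) and higher under PRGL493 (0.34, adjusted p = 0.0087). Its knockdown call was lost without control replicate 1 (adjusted p = 0.070).

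**Figure D5:**
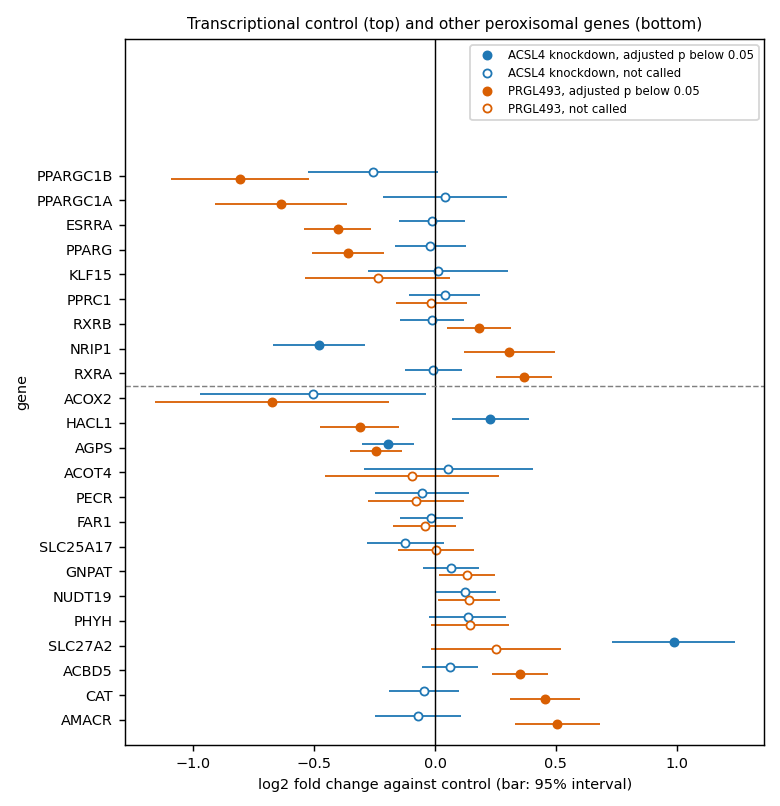
Log2 fold changes against control with 95% intervals for the tested regulators of oxidation genes (top) and 14 of the other peroxisomal lipid enzymes and carriers (bottom), both treatments per gene, filled where the adjusted p was under 0.05. Under PRGL493, ESRRA, PPARGC1A and PPARGC1B lie left of 0 and RXRA, CAT, AMACR and ACBD5 right of it.

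Downstream of odd-chain and branched-chain oxidation, 0 of 7 tested propionyl-CoA and ketone body genes rose and 2 fell in the knockdown, and 1 rose and 4 fell under PRGL493 (28.6% and 71.4% called, the former near the share of all genes). The propionyl-CoA carboxylase subunit PCCB fell by 0.74 under PRGL493 (adjusted p = 3.6e-07) and by 0.26 in the knockdown (adjusted p = 0.0085), and OXCT1, which activates ketone bodies, fell by 0.57 under PRGL493 (adjusted p = 6.1e-05). Of 7 tested CPT1 isoforms and dehydrogenases outside the 34, 14.3% were called in the knockdown and 28.6% under PRGL493, both below the shares of all genes: 0 rose and 1 fell in the knockdown (CPT1C, −0.51, adjusted p = 0.0011). Under PRGL493, 1 rose (IVD, the isovaleryl-CoA dehydrogenase, 0.22, adjusted p = 0.0062) and 1 fell (ACAD11, −0.69, adjusted p = 0.00014).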

How the data were processed

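RNA-seq of 9 MDA-MB-231 libraries (3 groups of 3) was analysed from 1 deposited table of estimated counts per gene (expected counts, 10.5% of values not whole). The genome was GRCh38 (per the submitters' processing notes). For aligner, counter, annotation and strand, the setting is not given in the sources used here. Values were rounded and filtered by filterByExpr (14135 of 26475 rows kept), with TMM factors and a group-only fit over all 9 libraries in edgeR 4.0.16 (R 4.3.3; robust quasi-likelihood test). P-values were adjusted over all genes tested by Benjamini-Hochberg and called under 0.05. The design assumed whole counts. SEs were taken from the test statistic, 95% intervals are unadjusted, and 6 residual degrees of freedom and a biological coefficient of variation of 6.38% set the precision. Levels are TMM-scaled CPM; per-kilobase levels use merged GENCODE 29 exons. The fit was tested on simulated data with few changed genes, the same dispersion for every gene and no length trend. That run therefore does not cover the many called genes or the length trend of knockdown replicate 2. Alternatives were RLE, upper-quartile or no scaling factors, other filters, DESeq2 1.42.0, only the compared groups, a replicate block and leaving out each library. Removing the length trend was added after seeing the data.

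Genes named outside the 34 were up to 3 called genes per list and treatment with the smallest adjusted p. The members and lists were chosen with earlier results of these data known. Of the 34, 14 share exon bases with another gene. No protein sequences were used here, and some genes of the lists are not reported here.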

Additional observations from a re-analysis of the deposited data

How the results depend on the processing

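Leaving out 1 library at a time gave 7 to 13 called members in the knockdown, 9 to 18 under PRGL493 and 16 to 23 between the treatments, beside 12, 14 and 20 with all 9. The log2 mitochondrial to peroxisomal difference ranged from 0.06 to 0.12 in the knockdown and from −0.35 to −0.32 under PRGL493; with CRAT and ECI2 counted as peroxisomal the latter was −0.29. With the length trend removed and without knockdown replicate 2, ECI2 turned from 0.16 to −0.011 between the treatments; the cause was not tested. With the length trend removed alone, 11 members were higher and 5 lower under PRGL493, of which 6 and 0 were peroxisomal and 2 and 5 mitochondrial; among all called genes the share higher went from 51.3% to 60.9%. Of called members in the knockdown, 50% were higher, but 64.3% with library totals alone and 61.5% with upper-quartile factors; over all genes these shares were 49.0%, 59.9% and 58.7%. Between the treatments 60% of called members were higher, but 71.4% with upper-quartile factors (all genes 48.4% and 58.4%). No scaling moved the median of all genes by over 0.1. Calls kept in all 17 planned settings numbered 6 of 12, 8 of 14 and 15 of 20. Replicate numbers did not pair the libraries: same-number correlations ran from −0.13 to 0.15, and 2 of 9 libraries matched best with their own number. With a replicate block 12, 13 and 17 members were called. DESeq2 called 13, 14 and 20.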
